A study of Homo sapiens with 9 samples.

Results

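To examine feedback genes of the ERK pathway after knockdown of the lncRNA *IGF1R-AS1*, the counts of *DUSP4*, *DUSP5*, *DUSP6*, *SPRY1*, *SPRY2*, *SPRY4*, *SPRED1*, *SPRED2*, *ETV4* and *ETV5* were followed in VCaP cells. These 10 genes were chosen by name, as a readout of growth factor signalling, out of 19918 genes listed in every library. VCaP is an established prostate cancer cell line, labelled as epithelial. The cells of the si025 and si033 groups were reverse transfected with one of a pair of siRNAs, both designed against exon 1 of *IGF1R-AS1*, at 100 pmol, and are labelled as *IGF1R-AS1* knockdown. The control group is labelled WT. The same 100 pmol of siRNA is given for its libraries, but the labels do not say which siRNA these cells received. Cells were harvested 72 h after transfection, and 1.3 µg of total RNA entered a stranded library preparation. Each of the 3 groups held 3 libraries, all from 1 cell line after transient transfection, so no stable or rescued line was part of the comparison. The target *IGF1R-AS1* itself was not analysed here, and the degree of knockdown in these libraries is therefore not given.

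Growth factors bind receptor tyrosine kinases at the cell surface, which activate RAS and then the kinases RAF, MEK and ERK in turn. Active ERK induces genes whose products switch the pathway off again, and the level of these genes is often used as a readout of ERK output. The dual-specificity phosphatases (DUSP) remove the activating phosphates from ERK and related kinases, the Sprouty (SPRY) and SPRED proteins restrain signalling between the receptor and RAF, and the ETS transcription factors ETV4 and ETV5 carry the response on to further genes. In prostate cells, the same pathway acts beside the androgen receptor, the main driver of this tissue's growth.

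The libraries held between 11649811 and 28492259 counts, the deepest 2.45 times the shallowest, and the depths of the groups overlapped. Values are given as CPM, TMM-normalised counts scaled to a common library size, and the floor of 3 counts corresponded to between 0.104 and 0.262 CPM, for counting error only. Of the 10 genes, 8 passed the low-count filter and were tested among 12810 genes, while *ETV4* and *ETV5* did not pass it. *SPRY4* passed through the si025 group, since 3 si025 libraries, 1 control library and 0 si033 libraries reached the cut-off of 0.709 CPM. The study calls its replicates biological, but neither it nor the labels say whether they came from separate cultures, and p-values measure the spread between these libraries only. All 10 markers of prostate epithelium were tested, with a summed level of 6874 to 7102 CPM in the control group, 7413 to 7733 CPM with si025 and 6177 to 6465 CPM with si033. In bulk RNA, fewer cells that express a gene cannot be told apart from less of its RNA per cell.

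Per kilobase of exon, the feedback genes covered a wide range of levels in control cells, and most lay in the lower part of the range of tested genes. *SPRED2* was the most abundant, at 9.59 RPKM (CPM per kilobase of exon), a level above that of 57.1% of tested genes. *SPRY1* followed at 3.60 RPKM, above 35.1% of tested genes. The next 3 genes, *DUSP5* at 1.56, *SPRY2* at 1.17 and *DUSP4* at 0.972 RPKM, overlapped with their neighbour in this order over the 3 control libraries. *DUSP6* lay at 0.764 and *SPRED1* at 0.210 RPKM, each below all libraries of the gene before it. *SPRY4* at 0.0992 and *ETV4* at 0.0818 RPKM overlapped with each other, and *ETV5* was lowest at 0.0228 RPKM. The levels of the last 3 genes rested on 34, 12 and 6 counts over the 3 control libraries, so their place relative to one another is imprecise.

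**Figure D1:**
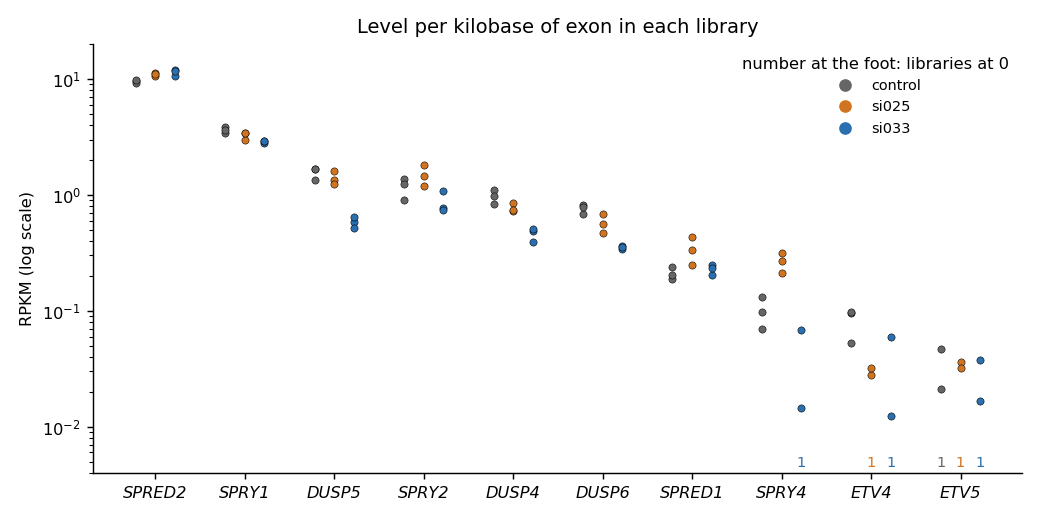
Level of each feedback gene in RPKM on a log axis, with 1 point per library for control, si025 and si033; figures at the foot count libraries at 0. In control cells the levels run from 9.59 RPKM for *SPRED2* to 0.0228 RPKM for *ETV5*.

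With si025, the feedback genes moved in both directions, with *SPRY4*, *SPRED1* and *SPRED2* higher and *DUSP4* and *DUSP6* lower than in the control group. With si033, 6 genes were lower, *DUSP4*, *DUSP5*, *DUSP6*, *SPRY1*, *SPRY2* and *SPRY4*, and *SPRED2* was higher. A gene is called here when its adjusted p from the edgeR quasi-likelihood test, corrected over all tested genes, was under 0.05. With si025, 5 of the 8 tested genes were called, next to 61.7% of all tested genes. With si033, 7 of 8 were called, next to 54.8% of all tested genes. By direction, 3 genes were higher and 2 lower with si025, where 32.9% of all tested genes were higher and 28.8% lower. With si033, 1 was higher and 6 were lower, where 26.9% of all tested genes were higher and 27.8% lower. Without *SPRY4*, which reached the test through its si025 libraries, the counts were 4 of 7 with si025 and 6 of 7 with si033, of which 5 were lower. For the 8 tested genes, *SPRY4* included, the median log2 fold change came to 0.02 (si025) and -0.77 (si033), next to 0.02 and 0.00 over all tested genes. Without *SPRY4*, the middle gene was *SPRY1* at -0.16 with si025 and *SPRY2* at -0.49 with si033, so both medians depended on *SPRY4*. Both comparisons share the control libraries, so their values are given side by side and no overlap between them is read as a result.

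**Figure D2:**
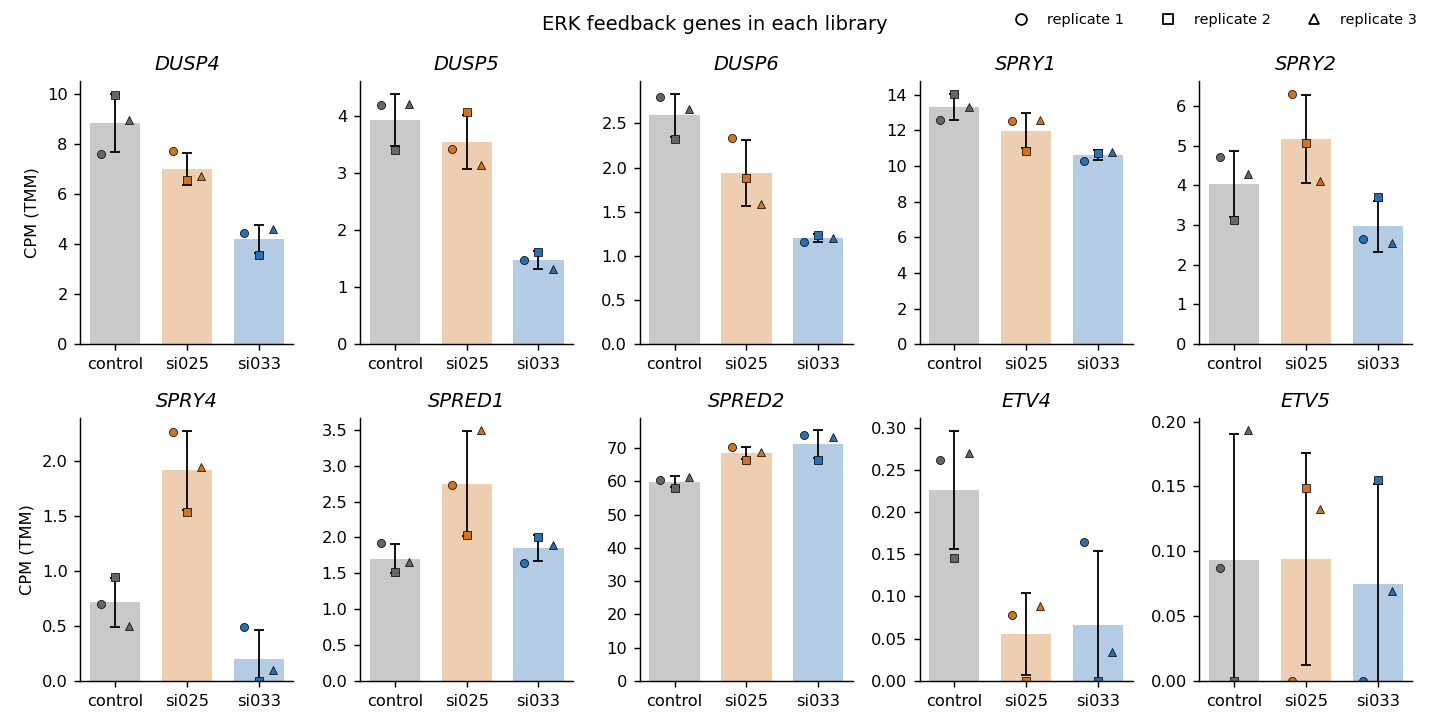
TMM-normalised CPM of each feedback gene. Bars give the mean of 3 libraries, error bars the SD and symbols the single libraries by replicate number. *DUSP4*, *DUSP5* and *DUSP6* were lowest in the 3 si033 libraries, and *SPRY4* was highest in the 3 si025 libraries.

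The 3 phosphatase genes were all lower with si033, by 2.08-fold to 2.75-fold. *DUSP5*, an inducible nuclear phosphatase selective for ERK (chr10:110497867-110511544, plus strand, hg38), had the lowest estimate of the 3 with si033. Its level was 4.19, 3.41 and 4.21 CPM in the control libraries, 3.43, 4.07 and 3.14 CPM with si025, and 1.48, 1.62 and 1.31 CPM with si033. The si033 libraries lay below all others, whereas the control and si025 libraries overlapped. The log2 fold change of *DUSP5* with si033 was -1.46 (SE 0.193, edgeR quasi-likelihood adjusted p = 1.05e-06), a 2.75-fold lower level. With si025 it was -0.16, with a 95% interval of -0.50 to 0.18, and was not called (adjusted p = 0.406 in the same test).

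*DUSP6* encodes a cytoplasmic phosphatase with high selectivity for ERK and is among the genes most used as a readout of ERK output (chr12:89347825-89352859, minus strand). Its level was 2.79, 2.32 and 2.67 CPM in control libraries, 2.34, 1.89 and 1.59 CPM with si025, and 1.15, 1.24 and 1.21 CPM with si033. All si033 libraries lay below all others and close together, while 1 si025 library reached into the control range. With si033, *DUSP6* was 2.15-fold lower (log2 fold change -1.11, SE 0.213, edgeR quasi-likelihood adjusted p = 0.000128). The fall with si025 was smaller (log2 fold change -0.46, SE 0.194, adjusted p = 0.0436) and lost its call in 9 of 17 processing alternatives, where the adjusted p reached 0.230 without si025 replicate 3. Other libraries whose removal ended this call were si025 replicate 2 (adjusted p = 0.0921), si033 replicates 1 (0.0538) and 3 (0.0531), and control replicates 1 (0.104) and 3 (0.133).

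*DUSP4*, a nuclear phosphatase that acts on ERK and on the stress kinases JNK and p38 (chr8:29333062-29350750, minus strand), stood at 7.59, 9.93 and 8.96 CPM in control libraries, 7.71, 6.55 and 6.72 CPM with si025, and 4.45, 3.56 and 4.59 CPM with si033. The si033 libraries again lay below all others, and the si025 and control libraries overlapped. *DUSP4* was 2.08-fold lower with si033 (log2 fold change -1.05, SE 0.136, edgeR quasi-likelihood adjusted p = 7.41e-07). With si025 it was 1.28-fold lower (log2 fold change -0.36, 95% interval -0.62 to -0.10, adjusted p = 0.0163), a call that ended in 5 of 18 alternatives. These were DESeq2 (adjusted p = 0.0506) and the fits without si025 replicate 2 (0.0504), si025 replicate 3 (0.0505), control replicate 2 (0.0859) or control replicate 3 (0.0538). The si033 calls of *DUSP4*, *DUSP5* and *DUSP6* held in every alternative in which each gene was tested.

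The Sprouty genes, which encode inhibitors of receptor-to-RAS signalling, were all called lower with si033, whereas with si025 only *SPRY4* was called, and higher. *SPRY4* (chr5:142310427-142325055, minus strand) had the lowest control level per kilobase of the 8 tested genes. Its counts were 8, 13 and 13 in the control libraries, 29, 31 and 44 with si025, and 6, 0 and 3 with si033. As CPM, these were 0.698, 0.942 and 0.502 in the control group, 2.26, 1.54 and 1.95 with si025, and 0.494, 0 and 0.104 with si033. The 3 groups did not overlap, although 2 of the si033 libraries were at or under the floor of 3 counts and the highest of them lay just under the lowest control library. *SPRY4* was 2.78-fold higher with si025 (log2 fold change 1.48, SE 0.334, edgeR quasi-likelihood adjusted p = 0.000559), and this call held in all 17 alternatives. Since *SPRY4* reached the test through its si025 libraries, where it is high, the alternatives are no separate support for this call. With si033, *SPRY4* was 3.88-fold lower (log2 fold change -1.96, SE 0.561, adjusted p = 0.00508). That estimate rests on 9 counts in the si033 group, ranged from -3.12 to -1.46 over 16 alternatives, and lost its call without si033 replicate 3 (-1.46, adjusted p = 0.0754).

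The summed fibroblast markers, like the summed markers of prostate epithelium above, were highest with si025 and lowest with si033, as *SPRY4* was. The summed level of the 5 fibroblast markers was 16.7 to 18.9 CPM in control libraries, 36.7 to 43.99 CPM with si025 and 8.90 to 11.5 CPM with si033. Of the 5, *COL1A1* and *LUM* passed the filter, and *LUM*, which encodes the matrix proteoglycan lumican, made up most of the sum. With si033, *LUM* was called lower (log2 fold change -0.88), whereas *COL1A1* was not called (-0.20, edgeR quasi-likelihood adjusted p = 0.503). The defining fibroblast genes *COL1A2* and *DCN* were at 0 to 1 and 1 to 4 counts per library. The 3 endothelial markers summed to at most 2.25 CPM and the 3 immune markers to at most 1.67 CPM in any library, with *CDH5* and *CD3E* at 0 in all 9. The part of these genes' source cells in the result for *SPRY4* was not tested.

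*SPRY1* and *SPRY2* changed less than *SPRY4*. *SPRY1* (chr4:123396791-123403760, plus strand) stood at 12.57, 14.1 and 13.3 CPM in control libraries, 12.5, 10.9 and 12.56 CPM with si025, and 10.3, 10.8 and 10.8 CPM with si033. Its control libraries lay above all others, by a narrow margin for si025. It was 1.25-fold lower with si033 (log2 fold change -0.33, SE 0.0918, edgeR quasi-likelihood adjusted p = 0.00457), a call that held in all 18 alternatives. With si025 its difference of -0.16 (95% interval -0.34 to 0.03) was not called (adjusted p = 0.131), but was called once offsets for gene length and GC content were added (-0.23, adjusted p = 0.0201).

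*SPRY2* (chr13:80335976-80341115, minus strand) varied more between replicates. It stood at 4.71, 3.12 and 4.29 CPM in control libraries, 6.31, 5.06 and 4.11 CPM with si025, and 2.64, 3.71 and 2.55 CPM with si033. The control group overlapped with both others, and the si033 libraries lay below all si025 libraries. *SPRY2* was 1.40-fold lower with si033 (log2 fold change -0.49, SE 0.199, edgeR quasi-likelihood adjusted p = 0.0431). That call ended in 6 of 17 alternatives: with DESeq2 (adjusted p = 0.0998), with upper quartile normalization (0.0590), and after removal of si033 replicate 1 (0.106) or 3 (0.237), or of control replicate 1 (0.148) or 3 (0.172). With si025 the difference was 0.32 (95% interval -0.06 to 0.69), not called (adjusted p = 0.135), but called without si025 replicate 3 (0.47, adjusted p = 0.0407).

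Of the SPRED genes, *SPRED2* was called higher with either siRNA and *SPRED1* with si025. *SPRED2* (chr2:65307425-65432599, minus strand) encodes a Sprouty-related protein that blocks activation of RAF by RAS. It stood at 60.3, 58.1 and 61.5 CPM in control libraries, 70.2, 66.44 and 69.0 CPM with si025, and 73.9, 66.46 and 73.4 CPM with si033. Every knockdown library lay above every control library, and the si025 and si033 libraries overlapped. The change was small, 1.14-fold with si025 (log2 fold change 0.19, SE 0.0539, edgeR quasi-likelihood adjusted p = 0.00408) and 1.19-fold with si033 (log2 fold change 0.25, SE 0.0541, adjusted p = 0.000443). With offsets for gene length and GC content, the si025 value fell to 0.05 and was no longer called (adjusted p = 0.275), while the si033 call held in all 18 alternatives.

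*SPRED1* (chr15:38252087-38357249, plus strand) encodes the protein that brings neurofibromin, a GTPase-activating protein of RAS, to the membrane. It stood at 1.92, 1.52 and 1.66 CPM in control libraries, 2.73, 2.03 and 3.49 CPM with si025, and 1.65, 2.01 and 1.90 CPM with si033. The si025 libraries lay above all others, the lowest of them only just, and the si033 and control libraries overlapped. *SPRED1* was 1.64-fold higher with si025 (log2 fold change 0.72, SE 0.216, edgeR quasi-likelihood adjusted p = 0.00631). Without si025 replicate 3, the highest library, the value was 0.46 and was not called (adjusted p = 0.106). With si033 the difference was 0.15 (95% interval -0.34 to 0.63), not called (adjusted p = 0.622).

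**Figure D3:**
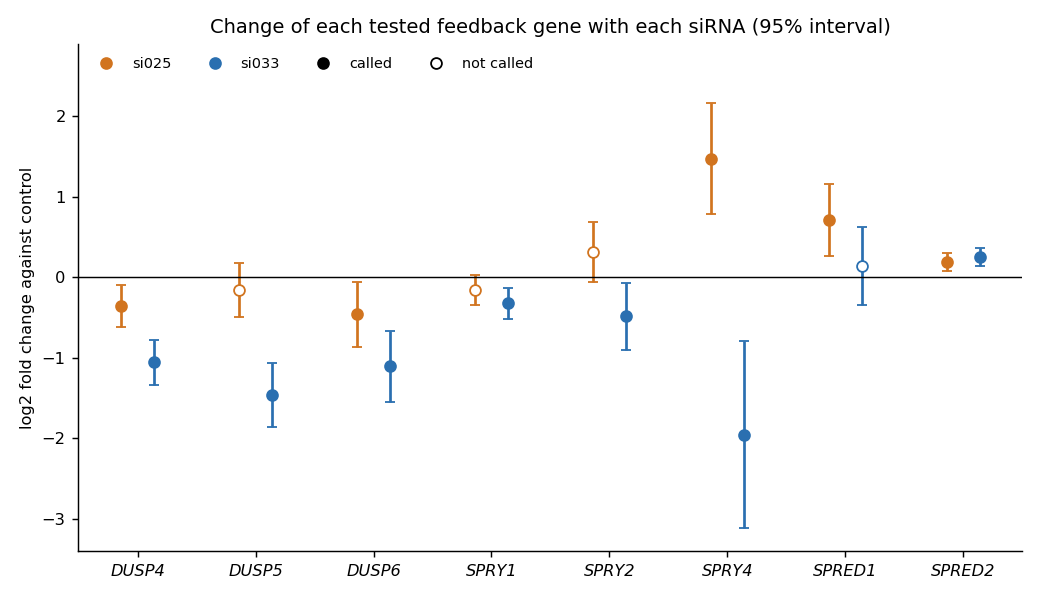
Log2 fold change against control of the 8 tested feedback genes with si025 and si033. Bars are 95% intervals and filled points are called. *SPRY4* lies at 1.48 with si025 and -1.96 with si033, and the 3 DUSP genes lie further below 0 with si033 than with si025.

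The transcription factor genes *ETV4* (chr17:43527843-43546432, minus strand) and *ETV5* (chr3:186046317-186109112, minus strand) were close to the limit of detection. *ETV4* had 3, 2 and 7 counts in the control libraries, 1, 0 and 2 with si025, and 2, 0 and 1 with si033. *ETV5* had 1, 0 and 5 counts in the control libraries, 0, 3 and 3 with si025, and 0, 2 and 2 with si033. In CPM, the libraries of *ETV5* overlapped between all groups, those of *ETV4* overlapped between si033 and both other groups, and the control libraries of *ETV4* lay above those of si025. Of these counts, 2 of the 18 values of the pair were above the floor of 3 counts. Over each group, *ETV4* summed to 12, 3 and 3 counts and *ETV5* to 6, 6 and 4, in the order control, si025 and si033. In the edgeR fit with no filter on low counts, *ETV4* was not called with si025 (adjusted p = 0.0691, unadjusted 0.0352) or si033 (adjusted p = 0.0870, unadjusted 0.0408), nor was *ETV5* (adjusted p = 0.965 and 0.690). No fold is given for either gene, since most values were at or under the floor, and a p that misses the threshold does not show that the groups were alike.

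The siRNAs were then compared directly with each other. In this comparison, 6 of the 8 tested genes were called, all of them higher with si025, where 60.9% of all tested genes were called and 31.2% were higher. Without *SPRY4*, 5 of 7 were called. The largest difference was in *SPRY4*, 10.8-fold higher with si025 than with si033 (log2 fold change 3.43, SE 0.444, edgeR quasi-likelihood adjusted p = 5.40e-07), followed by *DUSP5* at 2.46-fold (1.30, SE 0.194, adjusted p = 4.28e-06). The *SPRY4* estimate rests on 9 counts in the si033 group and ranged from 2.83 to 4.59 on the log2 scale over 17 alternatives, reaching 4.59 when si033 replicate 1 was left out. The other differences on the log2 scale were 0.80 for *SPRY2* (adjusted p = 0.000921), 0.70 for *DUSP4* (0.000158), 0.65 for *DUSP6* (0.0151) and 0.57 for *SPRED1* (0.0225). *DUSP6* and *SPRED1* lost this call in 3 and 4 of 17 alternatives: *DUSP6* with DESeq2 (0.0802) and without si025 replicate 1 (0.0700) or si033 replicate 3 (0.0564), and *SPRED1* with DESeq2 (0.107) and without si025 replicate 3 (0.264), si033 replicate 1 (0.0711) or si033 replicate 3 (0.0649). *SPRY1* (0.17, 95% interval -0.02 to 0.36) and *SPRED2* (-0.06, 95% interval -0.17 to 0.05) were not called, although *SPRY1* was called without si025 replicate 2 (0.24, adjusted p = 0.0401) and *SPRED2* with offsets for gene length and GC content (-0.15, adjusted p = 0.00305). The CPM ranges of the groups did not overlap for 7 of the 8 genes between si025 and si033, 4 between si025 and control, and 6 between si033 and control. Over all tested genes, the same was true of 62.6%, 65.7% and 59.5%, and no difference from these shares is read as a result. *SPRY4* is counted in each comparison, and *SPRY1* in that of si025 with control by 12.56 against 12.57 CPM.

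**Figure D4:**
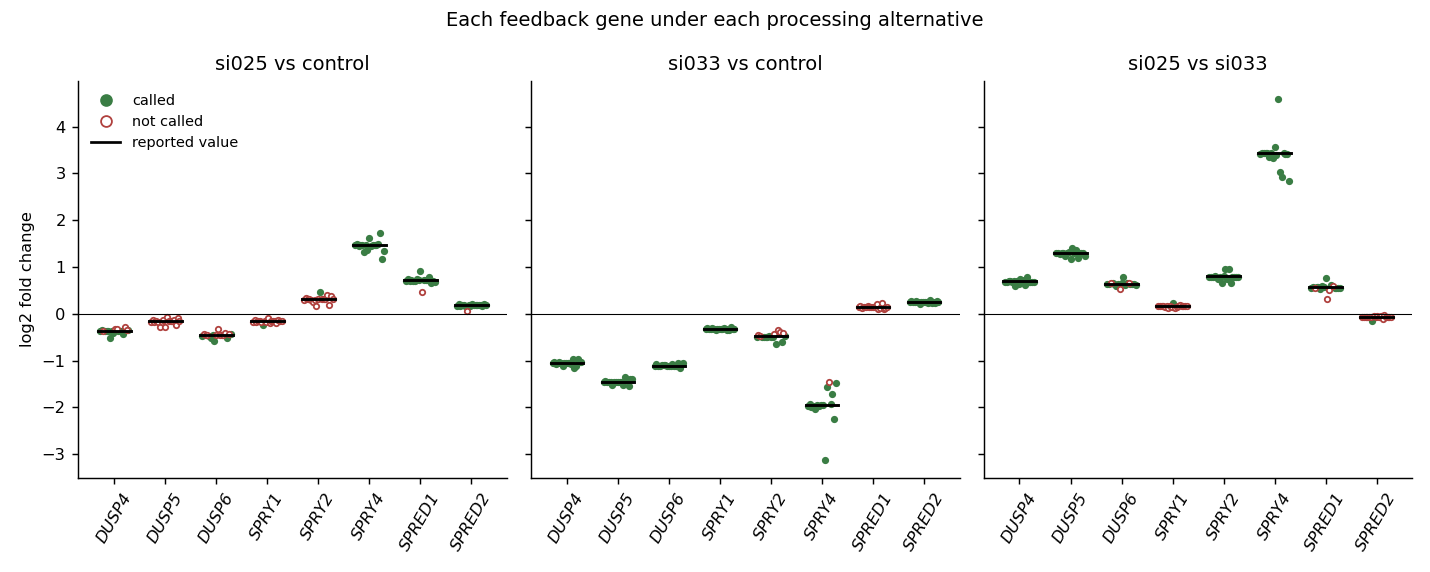
Log2 fold change of each tested feedback gene under each processing alternative, in 1 panel per comparison. Filled points are called, open points are not, and bars mark the reported value. With si033, *DUSP4*, *DUSP5*, *DUSP6*, *SPRY1* and *SPRED2* stayed called throughout, whereas *DUSP6* with si025 was called in some alternatives and not in others.

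To look for shared letters near the starts of these genes, promoter windows from 250 bases before to 50 bases after each start were taken from RefSeq (GRCh38.p14) and searched on both strands. Windows were found for 6 of the 10 genes, 10 windows in all: *DUSP6*, *SPRY1*, *SPRY2*, *SPRY4*, *SPRED1* and *SPRED2*. The words searched were the ETS core GGAAGT, the E-box CACGTG bound by MYC and related factors, the AP-1 word TGANTCA, the cyclic AMP response word TGACGTCA and the GC box GGGCGG. None of these words overlapped in the windows shown. The ETS core, the word bound by factors such as ETV4, was in 1 of the 10 windows, next to 22.8% of all 35116 windows of this length and 25.7% of the 14637 windows of tested genes. The AP-1 word was in 1 window, at the second start of *SPRED2* (7.71% of all windows and 5.17% of those of tested genes). The GC box was in 6 (45.0% and 65.4%), and the E-box (7.26% and 9.02%) and cyclic AMP response word (1.85% and 2.685%) were in 0. The windows below are those of *SPRY4*, which was higher with si025 and lower with si033, of *DUSP6*, lower with both, and of the second start of *SPRY2*, which held the ETS core. Capitals mark any searched word, read 5′ to 3′ on the strand of the gene, and words of the opposite strand appear as their reverse complement.
SPRY4 (chr5:142324198-142324497, minus strand): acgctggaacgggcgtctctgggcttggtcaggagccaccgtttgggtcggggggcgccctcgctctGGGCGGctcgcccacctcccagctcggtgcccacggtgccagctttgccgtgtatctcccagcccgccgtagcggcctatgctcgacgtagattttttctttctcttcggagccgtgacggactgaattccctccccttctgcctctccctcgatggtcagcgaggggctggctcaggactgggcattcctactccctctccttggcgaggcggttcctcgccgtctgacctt
DUSP6 (chr12:89352452-89352751, minus strand): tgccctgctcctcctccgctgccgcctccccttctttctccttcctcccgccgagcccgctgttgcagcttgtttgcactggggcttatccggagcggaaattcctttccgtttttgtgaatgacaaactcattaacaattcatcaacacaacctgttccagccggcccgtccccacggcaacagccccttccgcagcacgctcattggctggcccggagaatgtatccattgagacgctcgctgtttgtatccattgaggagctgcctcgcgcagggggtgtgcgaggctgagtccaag
SPRY2, second start (chr13:80340059-80340358, minus strand): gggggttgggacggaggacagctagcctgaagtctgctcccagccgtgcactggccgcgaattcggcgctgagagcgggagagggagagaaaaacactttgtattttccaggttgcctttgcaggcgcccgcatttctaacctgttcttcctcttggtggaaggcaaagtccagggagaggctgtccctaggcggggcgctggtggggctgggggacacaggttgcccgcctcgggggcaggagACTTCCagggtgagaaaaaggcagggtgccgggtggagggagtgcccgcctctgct
The window of *SPRY4* held 1 GC box, that of *DUSP6* held 0 of the 5 words, and that of *SPRY2* held the ETS core on the opposite strand. No match says only that these letters were not in this window.

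The siRNAs themselves can pair with other transcripts through bases 2 to 8 of the strand that guides silencing, so the feedback genes were searched for the matching words after their fold changes had been seen. The supplementary table of the study lists a control siRNA and a pair of *IGF1R-AS1* siRNAs, but does not say which of the pair is si025 or si033, nor that its control was used in these libraries. In the sequences below, capitals mark bases 12 to 18, the word that a target site would share if the complementary strand acts as guide.
control siRNA: uagcgacuaaaCACAUCAa
IGF1R-AS1 siRNA 1: agaaagcacugAAGACCUauu
IGF1R-AS1 siRNA 2: ccguauugcucAGUGGAAauu
In the 3′ UTRs of GENCODE canonical transcripts, the word of the control siRNA was found in *SPRED1* and *SPRED2*, 2 of the 10 genes, next to 11.7% of 12085 tested genes with a 3′ UTR. The word of siRNA 1 was found in the 3 phosphatase genes (11.5% of tested genes) and that of siRNA 2 in 0 of the 10 (16.0%). Over all tested genes, the median log2 fold change of genes with the control word was 0.16 with si025 and 0.13 with si033, against 0.01 and -0.01 for genes without it. For the word of siRNA 1 the medians were -0.01 and 0.00, against 0.02 and 0.00 without it, and for siRNA 2 they were 0.04 and 0.00, against 0.02 and 0.00. The 3′ UTRs of *SPRED1* and *DUSP4* were the longest of the 10, at 5588 and 3965 bases. The part of these words in the values of the feedback genes was not tested.

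Other genes of the pathway were taken from 6 hand-written lists, ordered from ligand to target, which held 94 genes, of which 69 were tested. Over all tested genes, 32.9% were called higher and 28.8% lower with si025, and 26.9% higher and 27.8% lower with si033. The counts below are given beside these shares, and no difference from them is read as a result. Every list held genes called in both directions with each siRNA, except the ligands with si025. Among 7 tested growth factor ligands, 4 were higher and 0 lower with si025 (median log2 fold change 0.75), and 3 were higher and 3 lower with si033 (median -0.05). *TGFA*, a ligand of the EGF receptor, rose by 1.63 with si025 and 0.67 with si033, and *PDGFB* by 0.75 and 0.88. *HGF*, the ligand of the receptor MET, was at -0.11 and not called with si025 and fell to -1.40 with si033. All of these values are log2 fold changes against control from the edgeR fit.

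Among 12 tested receptor tyrosine kinases, 6 were higher and 3 lower with si025 (median 0.33), and 4 were higher and 4 lower with si033 (median 0.19). *EGFR*, the EGF receptor, rose with both, by 2.08 and 1.15. The neurotrophin receptor gene *NTRK2* was lower with si025 (-0.55) and far higher with si033 (4.03), whereas the FGF receptor genes *FGFR1* (1.16 and -0.22) and *FGFR3* (0.62 and -0.53) moved the other way and *FGFR4* was lower with si033 (-0.76). Of 12 tested adaptors and RAS regulators, 5 were higher and 4 lower with si025 (median 0.07), and 7 were higher and 1 lower with si033 (median 0.12). The adaptor gene *GRB2*, which links receptors to the RAS activator SOS1, was at -0.95 with si025 and 0.12 with si033, and *SHC1* at -0.28 and 0.13, while *SOS1* itself was higher with both (0.45 and 0.26). *GAB2* was likewise higher with both (0.43 and 0.46), and *RASA2*, which inactivates RAS, lower with both (-0.25 and -0.32). Both calls of *GAB2* and that of *GRB2* with si033 were near the threshold (edgeR quasi-likelihood adjusted p = 0.0495, 0.0424 and 0.0399).

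Of 14 tested genes of the RAS, RAF, MEK and ERK core, 6 were higher and 4 lower with si025 (median 0.11), and 6 were higher and 3 lower with si033 (median 0.12). *MAPK3*, which encodes an ERK kinase, was called lower with si025 (-0.22) and higher with si033 (0.35). *RPS6KA1*, a kinase that ERK activates, was at 0.91 with si025 and 0.09, not called, with si033.

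The lists closest to the feedback genes were those of other negative regulators and other ERK-induced genes. Of 11 tested negative regulators, 5 were higher and 4 lower with si025 (median 0.12), and 4 were higher and 6 lower with si033 (median -0.18). Like *SPRY4*, the phosphatase genes *DUSP1* (0.56 and -0.61) and *DUSP10* (0.58 and -1.07) and the EGFR inhibitor gene *ERRFI1* (0.12 and -0.18) were called higher with si025 and lower with si033. *DUSP7* (-0.35 and 0.28) and *IL17RD* (-0.33 and 1.10), which encodes an inhibitor of FGF signalling, were called in the reverse order, and *DUSP9* was lower with both (-1.04 and -0.43). The calls of *ERRFI1* with si025 and *DUSP9* with si033 were near the threshold (edgeR quasi-likelihood adjusted p = 0.0409 and 0.0390). Of 13 tested ERK-induced genes, 3 were higher and 4 lower with si025 (median -0.14), and 1 was higher and 4 were lower with si033 (median -0.17). The early response gene *EGR1* rose by 0.50 with si025 and was at -0.07, not called, with si033. *PHLDA1* was at 0.40, not called, and -0.96, *SRF* was lower with both (-0.91 and -0.24), and *EPHA4* was at -0.27 and 0.65.

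**Figure D5:**
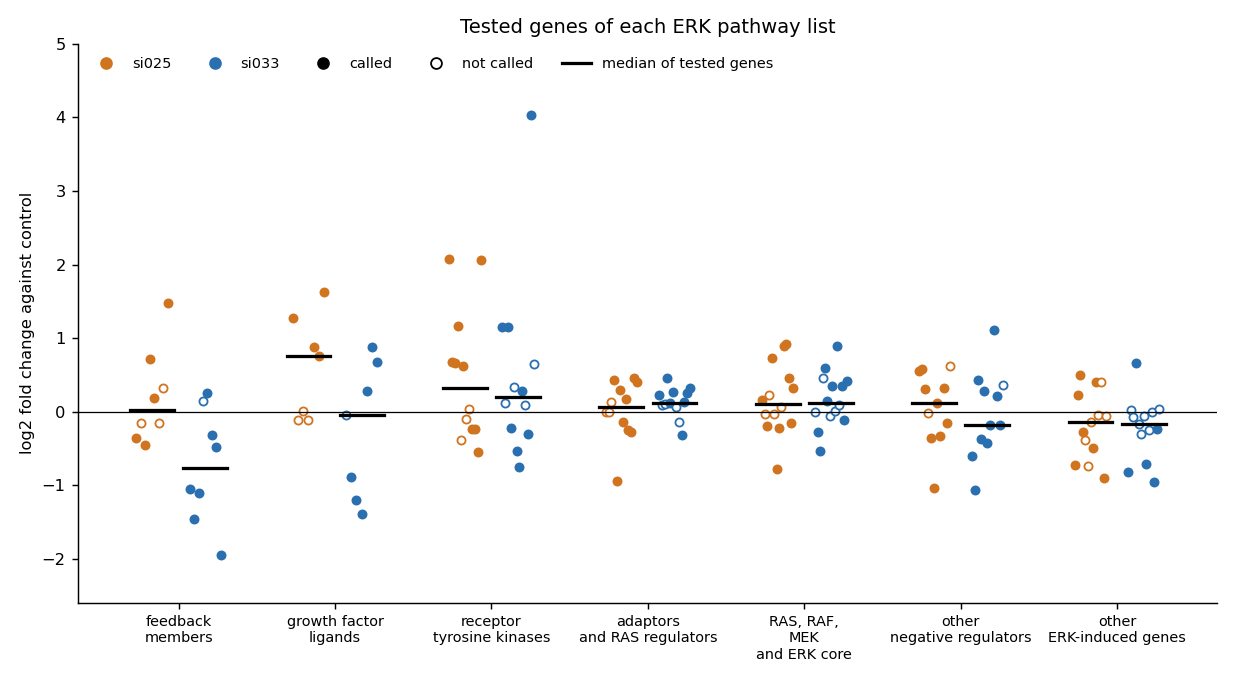
Log2 fold change against control of the tested genes in the feedback set and in each of the 6 other pathway lists, with si025 and si033. Filled points are called and bars are medians. The median of the 8 feedback genes with si033, *SPRY4* included, is -0.77, and the highest point is *NTRK2* at 4.03.

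The genes most like *DUSP6*, *SPRY4* and *SPRED1* over the 9 libraries were named by the Pearson correlation of log2 CPM, among 10470 genes with a mean of at least 5 CPM. For *DUSP6* they were *EBPL* (r = 0.969), *MTR* (0.969) and *MTIF2* (0.967). For *SPRY4* they were *PDXK* (0.977), *BOK* (0.975) and *NR4A1* (0.974). For *SPRED1*, *ADGRV1* had r = 0.985, *NCOA2* 0.948 and *TMEM184C* 0.945. Among the 10470 genes, 263 had r above 0.9 with *DUSP6*, 181 with *SPRY4* and 24 with *SPRED1*, so the named genes are not particular to them. These values describe 9 libraries in 3 groups that share the difference between groups, and no such gene was named for *ETV5*, which was not tested.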

How the data were processed

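RNA-seq libraries of VCaP cells were compared between the control, si025 and si033 groups, 3 libraries each, grouped by sample title. The authors aligned reads to hg38 with HISAT2 2.1.0 and made the deposited counts with featureCounts 1.5.2, per the labels and file headers, counting read pairs over exons by gene symbol on the sense strand. The deposited values are raw counts, with totals of 11649811 to 28492259 per library. The headers name a RefSeq annotation and the methods of the study name GENCODE, and the labels and methods name different extraction kits. Strand-specific counting separates *ETV4* from *DHX8*, which overlaps it on the opposite strand, and no other listed gene overlapped a feedback gene.

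Differential expression was tested with edgeR 4.0.16 (R 4.3.3) by the quasi-likelihood test in 1 fit of all 9 libraries with 3 group means, TMM normalization, the default filter (minimum count 10, reaching 0.709 CPM in 3 libraries) and Benjamini-Hochberg adjustment over 12810 genes. A gene was called at an adjusted p under 0.05, two-sided. Fold changes used the default prior count of edgeR, standard errors were derived from the F statistics, and levels are single-library CPM. The common biological coefficient of variation was 4.13%. Replicates differed by 1.69 to 5.09 chi-square units per degree of freedom, more than counting noise, and none were merged. Alternatives were DESeq2 1.42.0, DESeq2 size factors and upper quartile normalization in edgeR, no filter, a filter of 5 CPM in 3 libraries, the compared groups only, offsets for gene length and GC content, a replicate block, a prior count of 2 and leaving out each library. A count without *SPRY4* was added after seeing the data. The code was tested on simulated data.

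The feedback genes and all lists were chosen with earlier results of these data known. All 10 feedback genes were named, with, from each pathway list, the called genes with the largest rise and fall with each siRNA and those called in opposite directions, except that some genes of the core list are not reported here. For likeness, the 3 genes with the highest correlation were named for *DUSP6*, *SPRY4* and *SPRED1*.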

Additional observations from a re-analysis of the deposited data

Results flagged for a closer look

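For 6 feedback genes, the level differed between the si025 and si033 groups when the difference itself was tested with the edgeR quasi-likelihood test. The log2 difference, si025 over si033, was 3.43 for *SPRY4* (adjusted p = 5.40e-07), 1.30 for *DUSP5* (4.28e-06), 0.80 for *SPRY2* (0.000921), 0.70 for *DUSP4* (0.000158), 0.65 for *DUSP6* (0.0151) and 0.57 for *SPRED1* (0.0225). The *SPRY4* value rests on 9 counts in the si033 group, and *SPRY4* passed the filter through its si025 libraries. This value ranged from 2.83 to 4.59 over 17 alternatives, the highest without si033 replicate 1. The CPM ranges of the 3 libraries per siRNA did not overlap for any of these 6 genes, next to 62.6% of all tested genes. Since the 6 genes were picked by a test of the same values, this is no further support. The share of all tested genes that differed between the siRNAs was 60.9%. Which of the siRNAs lowered *IGF1R-AS1* more in these libraries was not analysed here.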

How the results depend on the processing

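No value of a feedback gene changed sign under any alternative that was run. With DESeq2, 3 feedback genes were called with si025 in place of 5, all higher. With a filter of 5 CPM in 3 libraries, 3 feedback genes were still tested, and 2, 3 and 1 were called for si025 against control, si033 against control and si025 against si033. Leaving out 1 library at a time gave 3 to 5, 5 to 7 and 4 to 7 called in these comparisons. The counts of all genes called stayed within 1.5 times those reported. With offsets for gene length and GC content, the split for si025 was 3762 higher and 5053 lower (42.7% higher), against 4220 and 3688 (53.4% higher) as reported, and the cause was not tested. *SPRY4* was not tested for si033 in the fit of the compared groups only, since it did not pass the filter there.

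The replicate numbers of the labels did not pair the libraries: correlations of same-numbered libraries ran from -0.02 to 0.07, none of the 9 same-numbered pairs was above 0.1, and 3 of 9 libraries correlated best with a library of their own number. With the replicate block, 8000, 7094 and 7843 genes and 5, 7 and 6 feedback genes were called in the 3 comparisons. At these depths, *ETV4*, *ETV5* and *SPRY4* with si033 rested on few counts per library, which limits their estimates.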
